A study of Mus musculus with 9 samples.

Results

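The genes described here are 10 aldehyde dehydrogenases of mouse liver: Aldh2, Aldh1b1, Aldh1a1, Aldh3a2, Aldh1l1, Aldh4a1, Aldh6a1, Aldh7a1, Aldh8a1 and Aldh9a1. They were picked by symbol, from a table of 24532 genes in which all 10 were found, and their library-scaled read counts across the 3 groups were known when they were picked. All 10 are among the 14731 genes that passed the filter on low counts. Because those values chose the members, their levels and differences are given as a description, without a test. Another 11 genes of the table carry an Aldh symbol; 9 of these passed the filter and, like the partner genes of each pathway, were tested.

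The samples are 9 libraries of poly(A)-selected RNA from whole liver of wild-type C57BL/6 mice, read from both ends. Every mouse, controls included, received the liver toxin thioacetamide (TAA) into the abdomen in escalating doses, 2 times a week for 10 weeks, a schedule that leads to liver fibrosis. In 3 livers (replicates 17, 18 and 19) recombinant human cytoglobin (rhCYGB), a haem protein of the globin family, was given into the tail vein at 2 mg/kg, 2 times a week, during the last 2 weeks of TAA. In 3 others (replicates 23, 27 and 28) the same dose was given during the last 5 weeks, and the 3 control livers (replicates 12, 13 and 14) came from mice given saline. The tissue was taken 2 days after the final rhCYGB dose. The mice keep their own cytoglobin gene, livers without TAA were not analysed here, and the labels do not tell if the libraries of a group come from different mice. All p-values below are thus relative to the spread among these 9 libraries, which may be technical.

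Aldehyde dehydrogenases oxidise aldehydes to carboxylic acids with NAD+ or NADP+ as the acceptor of electrons. Hepatocytes hold many members of the family, each with its own site in the cell and its own substrates: acetaldehyde made from ethanol, aldehydes released by lipid peroxidation, retinal, and the semialdehydes formed on the way from amino acids to central metabolism. The family therefore marks several separate liver pathways, and the members are described here by the pathway that each serves.

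To show the DNA just upstream of members that differed in direction, the 250 bases before the start are printed for Aldh9a1, which was higher after 5 weeks of rhCYGB, and for Aldh1b1, which was lower than in saline livers. Both starts coincide with the annotated start of the gene. The sequences are RefSeq's on GRCm38.p6, both genes lie on the plus strand, and each is written 5′ to 3′. Capitals mark matches to the motifs named in the next paragraph.
Aldh9a1, chr1:167349741-167349990: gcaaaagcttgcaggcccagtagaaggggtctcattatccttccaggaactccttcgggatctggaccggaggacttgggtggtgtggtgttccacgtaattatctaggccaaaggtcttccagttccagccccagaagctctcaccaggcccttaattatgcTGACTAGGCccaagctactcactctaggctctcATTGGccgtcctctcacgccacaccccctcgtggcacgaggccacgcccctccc
Aldh1b1, chr4:45798772-45799021: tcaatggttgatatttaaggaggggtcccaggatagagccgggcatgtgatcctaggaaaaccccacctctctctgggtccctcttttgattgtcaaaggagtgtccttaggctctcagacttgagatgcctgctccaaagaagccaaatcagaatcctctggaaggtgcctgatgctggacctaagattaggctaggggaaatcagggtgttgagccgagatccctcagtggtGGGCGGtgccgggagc

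The upstream sequences of 8 of the 10 members were searched. No entry was at hand for Aldh2, and Aldh7a1, on chromosome 18, was left out of the search. The motifs were searched on both strands over 250 bases before each start. Each share of all 32851 windows of that length is given with its count. Aldh1a1 and Aldh6a1 each had more than 1 start, and a match before any of them counted for the member. Counts of members and shares of windows are thus unlike measures. The DR1 element is a pair of AGGTCA half-sites 1 base apart and so contains that motif, and no other pair of motifs is nested. CCAAT lay upstream of 6 of the 8 members and in 33.8% of all windows, and Aldh1b1 and Aldh8a1 had none. GGGCGG lay upstream of 3 members (Aldh1b1, Aldh1l1 and Aldh3a2) and in 32.7% of all windows. AGGTCA, a nuclear receptor half-site, was found for 2 members (Aldh1l1 and Aldh6a1) and in 14.02% of all windows. For Aldh6a1 it lay only in the window at 84448318 to 84448567, inside the annotated gene and not before the gene's outermost start. TGACNNNGC, the core of the antioxidant response element, was found, of the 8 members, only for Aldh9a1, where it begins 87 bases before the start, and in 10.2% of all windows. TTGCNNCAA, CAAAGTCCA, TATAAA and DR1 were found for 0 of the 8 members, and in 1.74%, 0.384%, 12.4% and 0.0335% of all windows. These matches describe letters and not bound sites.

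The shallowest library held 55655727 estimated reads and the deepest 87289945, which is 1.57-fold more. Levels are given as CPM (reads of a gene per 1000000 reads) after TMM scaling, which brings the bulk of genes to a common level between libraries. The TMM factors were 0.843 to 0.964 in 2-week libraries, 0.916 to 1.04 in 5-week libraries and 1.11 to 1.18 in saline libraries, and scaling to library totals in place of TMM shifted the median gene by -0.33 (log2) for 2 weeks against saline, -0.22 for 5 weeks against saline and 0.11 for 5 weeks against 2 weeks. Changes of the Aldh genes are therefore given on both scales, and those of the called partner genes together in 1 place. A call is an adjusted p under 0.05 in edgeR's quasi-likelihood test, adjusted over all 14731 genes by the method of Benjamini and Hochberg. It was reached by 3.31% of genes at 2 weeks against saline, by 1.29% at 5 weeks against saline and by 0.0204% (0.0136% higher, 0.00679% lower) at 5 weeks against 2 weeks. The 5-week share rests on the joint fit of all 9 libraries: 190 genes were called in it, and 1 gene in a fit of the 5-week and saline libraries alone. On the first principal component of all tested genes (32.3% of the variance) 5-week replicate 23 lay at -78.8 and 2-week replicates 17 and 18 at 39.4 and 44.1, while the other 6 libraries lay between -20.2 and 20.5; this component did not separate the groups. On the second (23.0039%) the 6 rhCYGB libraries lay at -40.6 to 1.12 and the 3 saline libraries at 37.99 to 41.1, without overlap. Values without replicates 17, 18 and 23 are given where they matter. Replicate 19 is then the only 2-week library, so those values show no spread within that group. The hepatocyte markers identify the tissue: 12 of 12 markers were detected in every library, with summed levels of 150532 to 189873 CPM in 2-week livers, 144090.0 to 184172 CPM in 5-week livers and 131812 to 146190 CPM in saline livers. The summed level of 12 stellate cell and myofibroblast markers was 535 to 941 CPM in 2-week livers, 398 to 861 CPM in 5-week livers and 1396 to 2089 CPM in saline livers. In whole tissue, fewer cells of a type and less RNA per cell cannot be told apart.

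Together the 10 members held 0.583% to 0.751% of all reads in 2-week livers, 0.672% to 0.795% in 5-week livers and 0.587% to 0.640% in saline livers. Their summed level was 7153 ± 558 CPM after 2 weeks of rhCYGB, 7556 ± 185 CPM after 5 weeks and 5443 ± 235 CPM with saline (SD, n = 3 each). Of the 10 members, 9 had a positive log2 change at 2 weeks against saline and 9 at 5 weeks against saline, with Aldh1b1 the exception in both. With library totals as the scale, these counts were 5 and 8 of 10. The median log2 change of the members was 0.32 at 2 weeks and 0.48 at 5 weeks, beside -0.03 and 0.01 for all genes, and with library totals it was -0.0029 and 0.26, beside -0.36 and -0.21 for all genes. On the TMM scale the groups did not overlap for 6 members at 2 weeks, 5 higher and 1 lower than saline, where 33.7% of all genes did not overlap (17.3% higher, 16.3% lower). In the deposited FPKM (reads scaled to transcript length and library depth) Aldh2 stayed above saline at 2 weeks and Aldh1b1 below. Aldh1a1, Aldh3a2, Aldh7a1 and Aldh8a1 then overlapped with saline. At 5 weeks 8 members lay above saline on the TMM scale and 0 below, where 25% of all genes did not overlap (11.6% higher, 13.4% lower). Of these members Aldh1l1, Aldh6a1 and Aldh9a1 overlapped with saline in FPKM, and Aldh1b1 then lay below saline. Shares of all genes without overlap were not counted in FPKM.

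**Figure D1:**
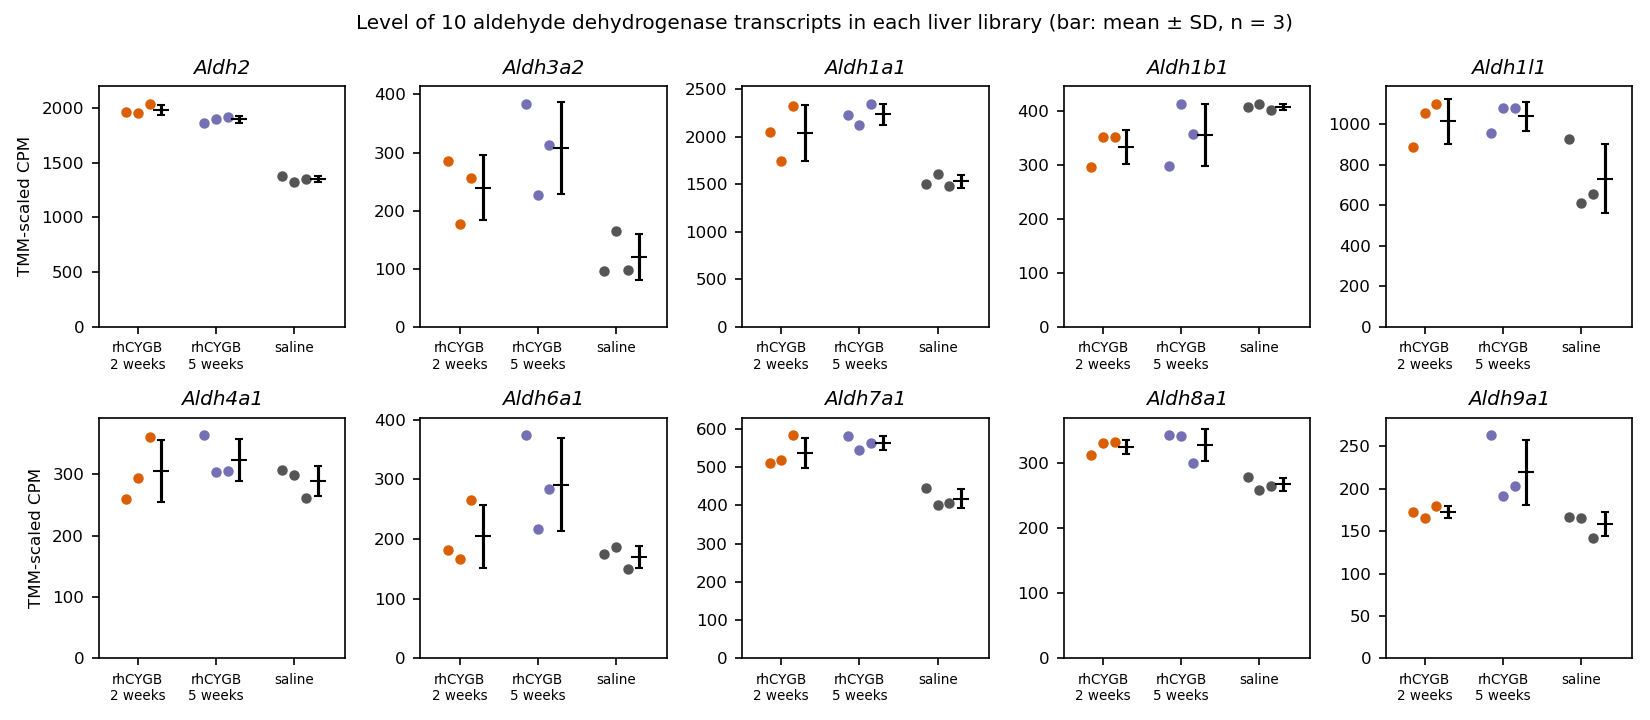
Level of each of the 10 members in every library (TMM-scaled CPM, linear axes from 0), with 2-week rhCYGB, 5-week rhCYGB and saline livers from left to right in each panel; points are libraries and the bars beside them are mean ± SD (n = 3). Aldh2 shows 3 tight groups with both rhCYGB groups above saline, while Aldh1b1 is the only member with a higher mean in saline livers than in both rhCYGB groups.

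The steps that handle acetaldehyde in mitochondria are served by Aldh2 and Aldh1b1. Aldh2 (gene 11669, mm10 chromosome 5, 121566027 to 121593824) is the principal acetaldehyde dehydrogenase of the liver and also clears aldehydes from peroxidised lipids. It had 1960.3, 1950.2 and 2037 CPM in 2-week livers, 1863, 1898 and 1921 CPM in 5-week livers, and 1377, 1327 and 1349 CPM in saline livers. Every rhCYGB liver exceeded every saline liver, in FPKM as well. Within each group the libraries differed little on the TMM scale. The FPKM spread was wider, with 458 ± 41.9 at 2 weeks, 474 ± 33.1 at 5 weeks and 393 ± 7.09 with saline (SD). The log2 change was 0.55 ± 0.10 (SE) at 2 weeks and 0.49 ± 0.10 at 5 weeks; with library totals it was 0.22 and 0.27, also positive. All 5-week livers lay slightly below all 2-week livers on the TMM scale, with a log2 change of -0.07 ± 0.10 that turned to 0.05 with library totals. On the TMM scale Aldh2 had the lowest coefficient of variation of the members within the 2-week and 5-week groups, 2.40% and 1.55%, and 1.87% in saline livers.

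Aldh1b1 (gene 72535, chromosome 4, 45799022 to 45804608) is a close relative of Aldh2 in the same compartment and is encoded by a gene whose protein is made from an uninterrupted reading frame. Its levels were 298, 352 and 352 CPM in 2-week livers, 298, 414 and 357 CPM in 5-week livers, and 408, 413 and 402 CPM in saline livers. On the TMM scale the 2-week livers all lay below saline, whereas the 5-week livers overlapped with saline through replicate 27. As FPKM that replicate had 162, below the lowest saline value of 193. The log2 change was -0.29 ± 0.14 at 2 weeks and -0.19 ± 0.14 at 5 weeks, and -0.61 and -0.42 with library totals. The 5-week change was -0.097 without replicate 23 and -0.31 without replicate 27. Within-group spread differed: the coefficient of variation was 9.40% at 2 weeks, 16.2% at 5 weeks and 1.32% with saline. Over the 9 libraries the log2 levels of Aldh1b1 had a negative Pearson's r with those of all 9 other members, between -0.73 (Aldh3a2) and -0.20 (Aldh4a1). Its r with Aldh2 was -0.65. By rank the correlations were weaker for most, with Spearman's rho between -0.60 (Aldh2 and Aldh3a2) and 0.05 (Aldh4a1), and -0.12 for Aldh1l1. All values share library scaling and groups, and the correlations only describe the libraries.

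Retinal and lipid aldehydes in the cytosol are substrates of Aldh1a1, and long-chain fatty aldehydes in the endoplasmic reticulum are oxidised by Aldh3a2. Aldh1a1 (gene 11668, chromosome 19, 20601982 to 20643462), which turns retinal into retinoic acid, had 2046, 1744 and 2325 CPM in 2-week livers, 2228, 2126 and 2344 CPM in 5-week livers, and 1499, 1606 and 1484 CPM in saline livers. All 6 rhCYGB livers exceeded the highest saline liver on the TMM scale. In FPKM Aldh1a1 overlapped, with 834 and 763 in 2-week replicates 17 and 18 and 804 to 919 in saline livers. Its log2 change was 0.41 ± 0.13 at 2 weeks and 0.55 ± 0.13 at 5 weeks, and 0.09 and 0.33 with library totals. Reads of Aldh1a1 and its near-identical neighbour Aldh1a7 may be exchanged, so neither value is certain as that of a single gene.

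Aldh3a2 (gene 11671, chromosome 11, 61223417 to 61267528), whose loss in humans causes Sjögren-Larsson syndrome, had the largest log2 change of the 10 members against saline at both times. It had 285, 178 and 256 CPM in 2-week livers, 384, 227 and 313 CPM in 5-week livers, and 96.6, 165 and 98.1 CPM in saline livers. On the TMM scale no rhCYGB liver overlapped with saline, although saline replicate 13 came close to 2-week replicate 18. Their order was reversed in FPKM, with 60.0 in saline replicate 13 and 49.4 in 2-week replicate 18. The log2 change was 1.00 ± 0.27 at 2 weeks and 1.36 ± 0.27 at 5 weeks, and 0.65 and 1.14 with library totals. Without saline replicate 13 the changes were 1.27 and 1.65, and without 5-week replicate 23 the 5-week change was 1.16. The share of Aldh3a2 in the summed level of the members was 3.35% at 2 weeks, 4.08% at 5 weeks and 2.20% with saline.

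Folate is the carrier handled by Aldh1l1 (gene 107747, chromosome 6, 90550848 to 90599171), a cytosolic enzyme that oxidises the formyl group of formyltetrahydrofolate to carbon dioxide. Aldh1l1 had 889, 1053 and 1101 CPM in 2-week livers, 958, 1079 and 1082 CPM in 5-week livers, and 929, 613 and 654 CPM in saline livers. Saline replicate 12 stood apart from the other saline livers and lay inside the 2-week range, while the 5-week livers were above all saline livers on the TMM scale. As FPKM saline replicate 12 had 328, above 5-week replicates 23 and 27 with 299 and 315. The log2 change was 0.47 ± 0.17 at 2 weeks and 0.51 ± 0.17 at 5 weeks, 0.15 and 0.29 with library totals, and 0.66 and 0.71 without saline replicate 12.

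Proline and valine enter mitochondrial oxidation through Aldh4a1 and Aldh6a1. Aldh4a1 (gene 212647, chromosome 4, 139622894 to 139649691) converts the semialdehyde made from proline to glutamate and acts likewise in hydroxyproline breakdown. It had 260.4, 295 and 360.4 CPM in 2-week livers, 363, 303 and 305 CPM in 5-week livers, and 308, 299 and 261 CPM in saline livers. The 3 groups overlapped. Its log2 change was 0.08 ± 0.15 at 2 weeks and 0.16 ± 0.15 at 5 weeks, and below 0 with library totals (-0.24 and -0.06). The 2-week change was -0.06 without 2-week replicate 19, 0.0040 without saline replicate 14 and 0.18 without 2-week replicate 17, and the 5-week change was 0.056 without 5-week replicate 23 and 0.099 without saline replicate 14.

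Aldh6a1 (gene 104776, chromosome 12, 84430721 to 84451024), the methylmalonate semialdehyde dehydrogenase of valine and thymine breakdown, had 182, 167 and 265 CPM in 2-week livers, 374, 217 and 283 CPM in 5-week livers, and 175, 186 and 149.7 CPM in saline livers. The 2-week and saline livers overlapped, and on the TMM scale all 5-week livers exceeded all saline livers. Measured in FPKM, 5-week replicate 27 had 57.2, below saline replicate 13 with 63.3. The log2 change was 0.27 ± 0.23 at 2 weeks, 0.78 ± 0.23 at 5 weeks and 0.51 ± 0.23 for 5 weeks against 2 weeks. Single libraries carried much of this: the 2-week change was 0.04 without 2-week replicate 19, and the change between 5 and 2 weeks was 0.29 without 5-week replicate 23 and -0.08 without replicates 17, 18 and 23. With library totals the 2-week change was -0.05 and the 5-week change 0.56. Bbof1, which overlaps Aldh6a1 in the annotation, averaged 0.850 CPM.

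Lysine, tryptophan and carnitine metabolism use the remaining 3 members. Aldh7a1 (gene 110695, chromosome 18, 56525736 to 56572939) oxidises the semialdehyde formed from lysine and also betaine aldehyde, and its loss in humans causes pyridoxine-dependent epilepsy. Its levels were 510.5, 519 and 583 CPM in 2-week livers, 581, 546 and 563 CPM in 5-week livers, and 446, 399.7 and 407 CPM in saline livers. Both rhCYGB groups lay above saline without overlap on the TMM scale, with a log2 change of 0.36 ± 0.11 at 2 weeks and 0.43 ± 0.11 at 5 weeks, and 0.04 and 0.22 with library totals. The 2-week livers overlapped with saline in FPKM, with 143 to 187 against 152 to 162. Phax, an overlapping gene, averaged 29.3 CPM.

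Aldh8a1 (gene 237320, chromosome 10, 21377300 to 21396578), which oxidises aminomuconate semialdehyde in the kynurenine pathway of tryptophan, had 312, 331 and 331 CPM in 2-week livers, 342, 341 and 299 CPM in 5-week livers, and 278, 258 and 265 CPM in saline livers. All rhCYGB livers lay above all saline livers on the TMM scale, by a narrow margin. Measured in FPKM, Aldh8a1 overlapped, with 115 to 140 in 2-week livers and 131 to 135 in saline livers. Its log2 change was 0.28 ± 0.10 at 2 weeks and 0.29 ± 0.10 at 5 weeks; with library totals the 2-week change turned to -0.04 and the 5-week change was 0.07. Aldh9a1 (gene 56752, chromosome 1, 167349991 to 167368530), which makes the direct precursor of carnitine from trimethylaminobutyraldehyde, had 173, 165 and 179 CPM in 2-week livers, 263, 192 and 203 CPM in 5-week livers, and 167, 166 and 142 CPM in saline livers. The 2-week livers overlapped with saline, and on the TMM scale the 5-week livers lay above both other groups. In FPKM Aldh9a1 had 61.1 in 5-week replicate 27, below saline replicates 12 and 13 with 64.2 and 68.1. Its log2 change was 0.12 ± 0.14 at 2 weeks (-0.21 with library totals, 0.047 without saline replicate 14), 0.47 ± 0.14 at 5 weeks (0.25 with library totals) and 0.35 ± 0.14 for 5 weeks against 2 weeks, and without 5-week replicate 23 the change at 5 weeks was 0.30 against saline and 0.19 against 2 weeks.

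**Figure D2:**
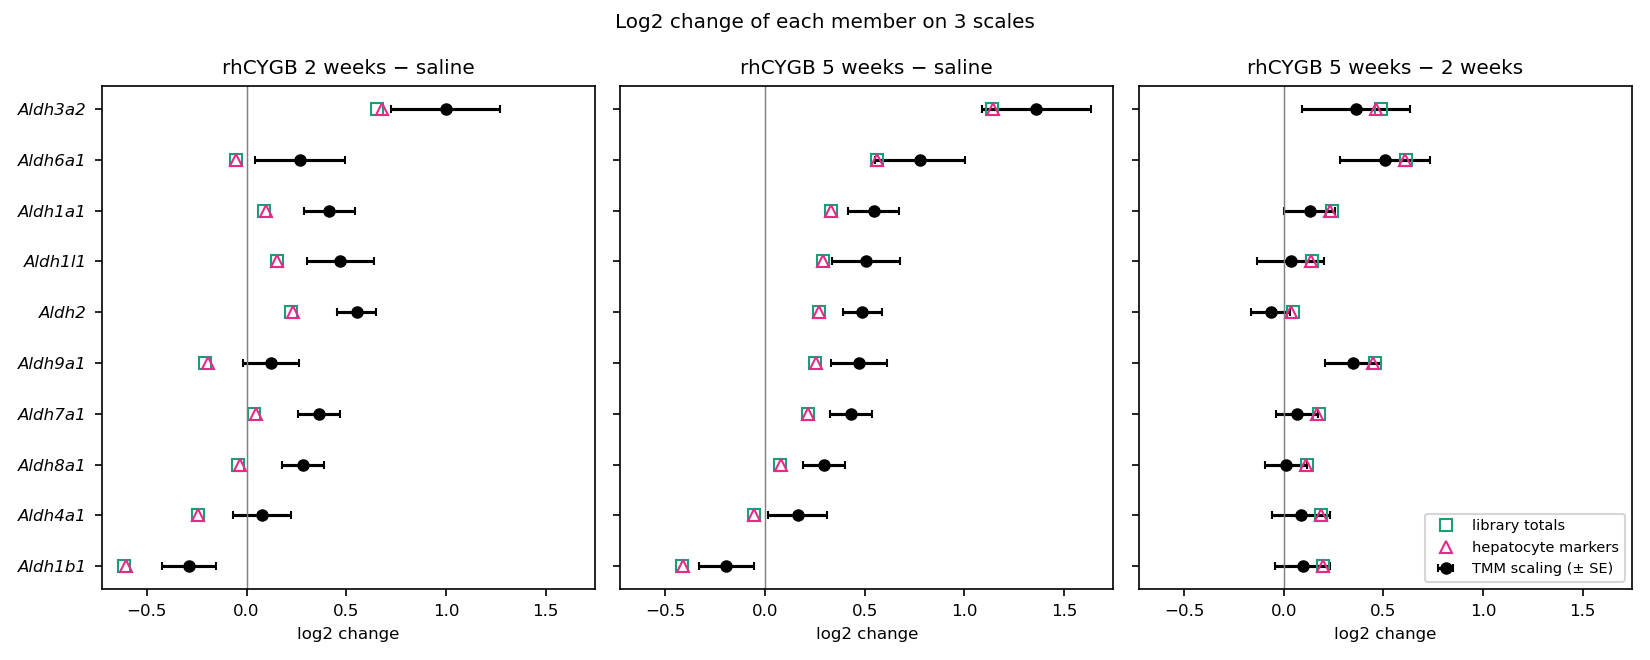
Log2 change of each member for 2 weeks against saline, 5 weeks against saline and 5 weeks against 2 weeks, on the TMM scale (black points with SE bars), with library totals (green squares) and scaled to hepatocyte markers (pink triangles). Aldh3a2 lies furthest to the positive side in both comparisons with saline, and Aldh1b1 is negative in both on each scale.

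The 5-week and 2-week livers were close to each other for most members. The median log2 change of the members was 0.09, beside -0.01 for all genes, and its range was -0.07 for Aldh2 to 0.51 for Aldh6a1. On the TMM scale 9 of 10 members were positive, and with library totals 10 of 10. Aldh9a1 lay higher and Aldh2 lower in 5-week livers without overlap on the TMM scale, 1 member each way, where 21.1% of all genes did not overlap (10.9% higher, 10.2% lower). The 5-week and 2-week livers overlapped for Aldh2 in FPKM. Without replicates 17, 18 and 23, with replicate 19 as the only 2-week library, the median was -0.05. Over the alternatives tried, Aldh3a2 and Aldh9a1 had a positive change between 5 and 2 weeks throughout, and the other 8 members turned under at least 1. Without replicates 17, 18 and 23 the change was -0.057 for Aldh1a1, -0.027 for Aldh1l1, -0.24 for Aldh4a1, -0.073 for Aldh7a1 and -0.051 for Aldh8a1. When a single library was left out, Aldh1b1 came to -0.025 (without 5-week replicate 27), Aldh1l1 to -0.051 (without 2-week replicate 17), Aldh4a1 to -0.015 (17) and -0.0079 (23), and Aldh8a1 to -0.015 (17), -0.025 (23) and -0.016 (27). Aldh8a1 also came to -0.024 with upper quartile scaling and Aldh1l1 to -0.018 with the length trend removed. Aldh3a2, at 0.36, came to 0.17 without 5-week replicate 23 and 0.19 without 2-week replicate 18. The 2 comparisons with saline share the same 3 saline libraries, so that their values are not independent of each other.

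Levels between genes were compared per transcript length, as the deposited FPKM values (reads scaled to transcript length and library depth). Aldh1a1 was first in all 9 libraries with a mean of 933 FPKM (763 to 1178), followed by Aldh2 with 442 FPKM (388 to 510) and then Aldh1l1 with 294 FPKM (231 to 358). These 3 did not overlap with each other or with Aldh7a1, the fourth at 167 FPKM. Aldh7a1, Aldh1b1 (159 FPKM) and Aldh8a1 (134 FPKM) overlapped with their neighbours in this order, and Aldh8a1 was above Aldh4a1 in every library. The order among Aldh4a1 (90.3 FPKM), Aldh3a2 (67.3 FPKM), Aldh6a1 (64.0 FPKM) and Aldh9a1 (63.8 FPKM) was not fixed, and Aldh3a2 held ranks 7 to 10 over the libraries. The mean of Aldh1a1 was 14.6-fold that of Aldh9a1. In FPKM, Aldh1b1 averaged 129 ± 19.9 at 2 weeks, 148 ± 20.6 at 5 weeks and 199 ± 8.74 with saline (SD, n = 3 each), and within the saline group it lay above Aldh8a1 without overlap.

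Over the 9 libraries, 36 of the 45 pairs of members had a positive Pearson's r between their log2 levels, with a median r of 0.70. After the group means were removed, 31 of the 45 pairs were positive and the median r was 0.32. The genes outside the family whose level followed the mean standardised level of the members most closely were sought among 12398 genes that averaged 1 CPM or more. Upb1, which completes the breakdown of uracil and thymine, came first with r = 0.99, followed by the urea cycle gene Otc (r = 0.99), Tmem8 (r = 0.98), Uox, which oxidises urate (r = 0.98), and Mfsd4b1 (r = 0.97). Upb1 had 248, 259.5 and 286 CPM in 2-week livers, 302, 288 and 277 CPM in 5-week livers, and 236, 222 and 211 CPM in saline livers. Otc had 319, 344 and 387 CPM in 2-week livers, 428, 389 and 374 CPM in 5-week livers, and 266, 248 and 234 CPM in saline livers. For both genes all rhCYGB livers exceeded all saline livers on the TMM scale. As FPKM the 2-week and saline livers overlapped for both. These genes were chosen for their likeness over these libraries, and the r values describe them only.

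Of the 11 Aldh genes outside the 10 members, 9 were tested, and 2 rose at 2 weeks against saline, where 1.98% of all genes were called higher. Aldh3b1, which oxidises lipid aldehydes in several tissues, had 14.7, 13.7 and 15.9 CPM in 2-week livers and 9.30, 9.83 and 9.19 CPM in saline livers, a log2 change of 0.65 ± 0.12 (edgeR, adjusted p = 0.0275). Aldh16a1, a divergent member of the family, had 96.8, 104 and 99.96 CPM in 2-week livers and 72.0, 74.8 and 71.1 CPM in saline livers, a log2 change of 0.46 ± 0.10 (edgeR, adjusted p = 0.0452). In 5-week livers Aldh3b1 had 10.00 to 11.1 CPM (log2 change 0.17 ± 0.12, edgeR, adjusted p = 0.476) and Aldh16a1 76.0 to 86.6 CPM (0.18 ± 0.10, adjusted p = 0.392), both turning to -0.05 with library totals. The direct difference between 5 and 2 weeks was -0.48 ± 0.12 for Aldh3b1 and -0.29 ± 0.10 for Aldh16a1 (edgeR, adjusted p = 0.143 and 0.180). Both 2-week calls were lost, in the same direction, with library totals (log2 change 0.32 and 0.13, edgeR, adjusted p = 0.143 and 0.414) and when any of the saline or 2-week libraries or 5-week replicate 28 was left out (adjusted p 0.0530 to 0.132 for Aldh3b1 and 0.0664 to 0.175 for Aldh16a1). Over all alternatives the adjusted p ran between 2.26e-05 and 0.146 for Aldh3b1 and between 0.00051 and 0.414 for Aldh16a1, the lowest from DESeq2.

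Aldh18a1, which makes the precursor of proline from glutamate, and Aldh1a2, a retinal dehydrogenase known from embryonic and mesenchymal cells, had lower values in both rhCYGB groups without passing the test. Aldh18a1 had 2.77, 4.28 and 2.81 CPM in 2-week livers, 2.31, 2.96 and 3.55 CPM in 5-week livers, and 5.66, 5.30 and 6.19 CPM in saline livers. Neither rhCYGB group overlapped with saline, and the log2 change was -0.79 ± 0.23 at 2 weeks and -0.96 ± 0.23 at 5 weeks (edgeR, adjusted p = 0.0818 and 0.0703); DESeq2 called both (adjusted p = 0.0184 and 0.00404), as did library totals (edgeR, adjusted p = 0.0278 and 0.0453). Over all alternatives its adjusted p ran between 0.0165 and 0.281 at 2 weeks and between 0.00404 and 0.231 at 5 weeks. Aldh1a2 had 1.59, 2.75 and 1.04 CPM in 2-week livers, 0.602, 1.80 and 2.24 CPM in 5-week livers, and 3.90, 3.22 and 7.09 CPM in saline livers. Its log2 change was -1.39 ± 0.51 at 2 weeks and -1.62 ± 0.51 at 5 weeks (edgeR, adjusted p = 0.144 and 0.138; DESeq2, adjusted p = 0.0451 and 0.0206), and over all alternatives its adjusted p ran between 0.0340 and 0.371 at 2 weeks and between 0.0206 and 0.391 at 5 weeks. The stellate cell and myofibroblast markers were lower in the same groups, 3 of 12 called lower at 2 weeks and 2 of 12 at 5 weeks, where 1.34% and 0.604% of all genes were; their part in the values of these 2 genes was not tested.

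Aldh1a7 and Aldh5a1 were not called by edgeR in any comparison on the TMM scale. Aldh1a7 averaged 325 ± 39.5 CPM at 2 weeks, 352 ± 23.05 CPM at 5 weeks and 315 ± 7.83 CPM with saline (SD, n = 3 each), with log2 changes of 0.05 ± 0.12 and 0.16 ± 0.12 that were -0.28 and -0.06 with library totals (edgeR, adjusted p = 0.836 and 0.497 on the TMM scale). Aldh5a1, which oxidises succinic semialdehyde from the neurotransmitter GABA, averaged 54.7 ± 1.74 CPM in 2-week livers, 63.7 ± 11.5 CPM in 5-week livers and 44.7 ± 5.22 CPM in saline livers, with log2 changes of 0.29 ± 0.15 (-0.04 with library totals) and 0.51 ± 0.15 (0.30 with library totals; edgeR, adjusted p = 0.258 and 0.111). It was called at 5 weeks by DESeq2 (adjusted p = 0.0315), and at 2 and 5 weeks when a trend with transcript length was removed (edgeR, adjusted p = 0.0365 and 0.0475). The other 5 genes were near the limit of detection. Aldh1a3 lay between 0.139 and 0.657 CPM in all 9 libraries. Aldh1l2, the mitochondrial counterpart of Aldh1l1, was listed at 0 reads in all 2-week livers, at 16, 0 and 9 reads in 5-week livers, and at 16, 14 and 12 reads in saline livers. Aldh3b3 reached at most 14 reads, Aldh3a1 at most 8 and Aldh3b2 at most 4. A count of 0 allows up to 3 reads.

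**Figure D3:**
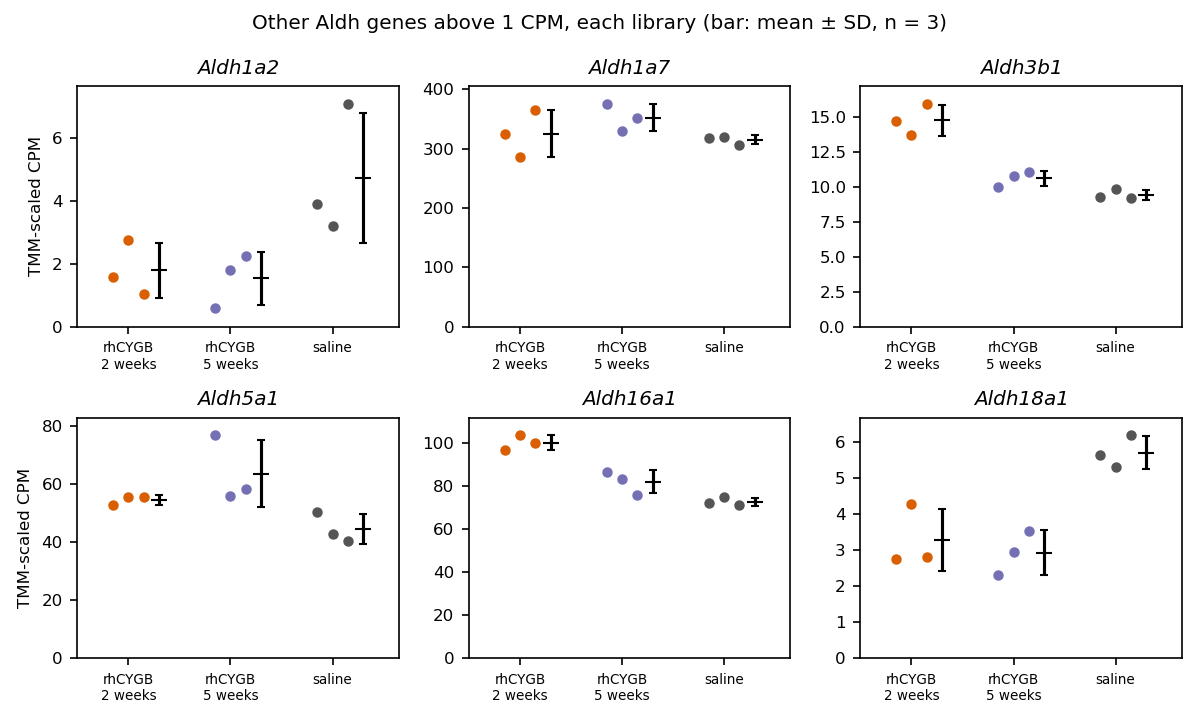
Levels (TMM-scaled CPM, linear axes from 0) of the 6 Aldh genes outside the 10 members that averaged 1 CPM or more, with 2-week rhCYGB, 5-week rhCYGB and saline livers from left to right; points are libraries and the bars beside them are mean ± SD (n = 3). Aldh3b1 and Aldh16a1 are highest in 2-week livers, and Aldh18a1 and Aldh1a2 are highest in saline livers.

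Partner genes of the members' pathways were followed through 10 lists with 148 tested genes, chosen with earlier results of these libraries known. At 2 weeks against saline 17 of the 148 rose and 0 fell (11.5% called, beside 1.98% of all genes called higher), and the median log2 change was 0.22, beside -0.03 for all genes. At 5 weeks 9 rose and 0 fell (6.08%, beside 0.686% of all genes called higher), with a median of 0.31, beside 0.01. Between 5 and 2 weeks 0 were called by edgeR, beside 0.0204% of all genes. DESeq2 called 12 (8.11%), 8 higher and 4 lower, beside 5.35% of all genes. With library totals 6 rose and 7 fell at 2 weeks (beside 11.7% of all genes called, 0.747% higher), and 1 rose and 2 fell at 5 weeks (beside 3.42% and 0.258%). Of those, the gene that rose at 5 weeks was Cyp2e1 and the genes that fell were Acmsd and Aldh18a1, named after their values were seen. The naming rule (up to 3 called genes per list and comparison) took 13 genes at 2 weeks and 8 at 5 weeks; with library totals all of these had a positive log2 change and 6 and 1 of them were called. At 2 weeks those changes were 0.55 for Gsta3, 0.72 for Gsta4, 0.61 for Akr7a5, 0.72 for Gnmt, 0.45 for Bckdha and 0.61 for Kyat3 among the called genes. Among the genes not called with library totals at 2 weeks they were 0.39 for Rbp4, 0.20 for Dhrs4, 0.27 for Rdh7, 0.47 for Dpys, 0.32 for Mcee, 0.21 for Gcdh and 0.49 for Haao. At 5 weeks the change with library totals was 1.16 for Cyp2e1, which was called, and 0.49 for Cat, 0.53 for Phyh, 0.34 for Hoga1, 0.49 for Auh, 0.51 for Dpys, 0.33 for Hibch and 0.59 for Bbox1, which were not. The 2-week count of calls on the TMM scale was 0 when saline replicate 12, 13 or 14 or 2-week replicate 17 or 18 was left out, 2 without 5-week replicate 28, 10 without 2-week replicate 19, 29 without 5-week replicate 27 and 35 without 5-week replicate 23. The 5-week count was 0 in a fit of the 2 groups alone, 9 without replicate 27, 1 without replicate 12 and 0 when any other single library was left out.

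Around Aldh2 and Aldh1b1, the ethanol and acetaldehyde list had 2 of 10 genes called higher at 5 weeks and 0 at 2 weeks. Cyp2e1, the ethanol-oxidising cytochrome P450, averaged 1815 ± 321 CPM in 5-week livers and 699 ± 206 CPM in saline livers (2.60-fold; edgeR, adjusted p = 0.0361), and catalase (Cat) 2734 ± 299.95 CPM in 5-week livers and 1676 ± 169 CPM in saline livers (1.63-fold; edgeR, adjusted p = 0.0427). Cyp2e1 is also among the hepatocyte markers. Adh5, with the lowest p of the list at 2 weeks, averaged 527 ± 30.6 CPM in 2-week livers and 384 ± 21.5 CPM in saline livers without passing (edgeR, adjusted p = 0.0615).

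Among 17 genes that conjugate or reduce reactive lipid aldehydes, 4 rose at 2 weeks and 0 were called at 5 weeks, with median log2 changes of 0.77 and 0.42. Gsta3 averaged 2518 ± 157 CPM in 2-week livers and 1371 ± 220 CPM in saline livers (1.84-fold; edgeR, adjusted p = 0.0275), Gsta4, which conjugates hydroxynonenal to glutathione, 391 ± 57.6 CPM in 2-week livers and 188 ± 27.7 CPM in saline livers (2.08-fold, adjusted p = 0.0365), and the aldehyde reductase Akr7a5 290.2 ± 47.2 CPM in 2-week livers and 150.2 ± 17.3 CPM in saline livers (1.93-fold, adjusted p = 0.0368). The glutathione transferases belong to a family of near-identical genes and are uncertain as single genes. Akr7a5 was at 186 ± 45.3 CPM in 5-week livers, a log2 difference of -0.65 ± 0.19 from 2-week livers that did not pass (edgeR, adjusted p = 0.170).

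Beside Aldh1a1, 4 of 18 genes of retinoid oxidation rose at 2 weeks and 0 were called at 5 weeks. Rbp4, the plasma carrier of retinol, averaged 3498 ± 214 CPM in 2-week livers and 2121 ± 142 CPM in saline livers (1.65-fold; edgeR, adjusted p = 0.0339), the retinal reductase Dhrs4 151 ± 7.19 CPM in 2-week livers and 105 ± 4.94 CPM in saline livers (1.45-fold, adjusted p = 0.0350), and the retinol dehydrogenase Rdh7 990.2 ± 95.3 CPM in 2-week livers and 651 ± 21.5 CPM in saline livers (1.52-fold, adjusted p = 0.0367). Cyp26a1, which degrades retinoic acid, averaged 39.7 ± 3.30 CPM in 5-week livers and 90.5 ± 39.1 CPM in 2-week livers (edgeR, adjusted p = 0.158). The fatty aldehyde list around Aldh3a2 had 1 of 11 genes called, Phyh, which starts the oxidation of phytanic acid, with 1280.4 ± 133 CPM in 5-week livers and 763 ± 44.0 CPM in saline livers (1.68-fold; edgeR, adjusted p = 0.0361). The medians of that list were -0.02 at 2 weeks and -0.07 at 5 weeks. Among 21 genes of folate metabolism, Gnmt, the glycine methyltransferase that folate inhibits, was the only gene called, at 1947 ± 353 CPM in 2-week livers and 936 ± 170 CPM in saline livers (2.08-fold; edgeR, adjusted p = 0.0416).

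**Figure D4:**
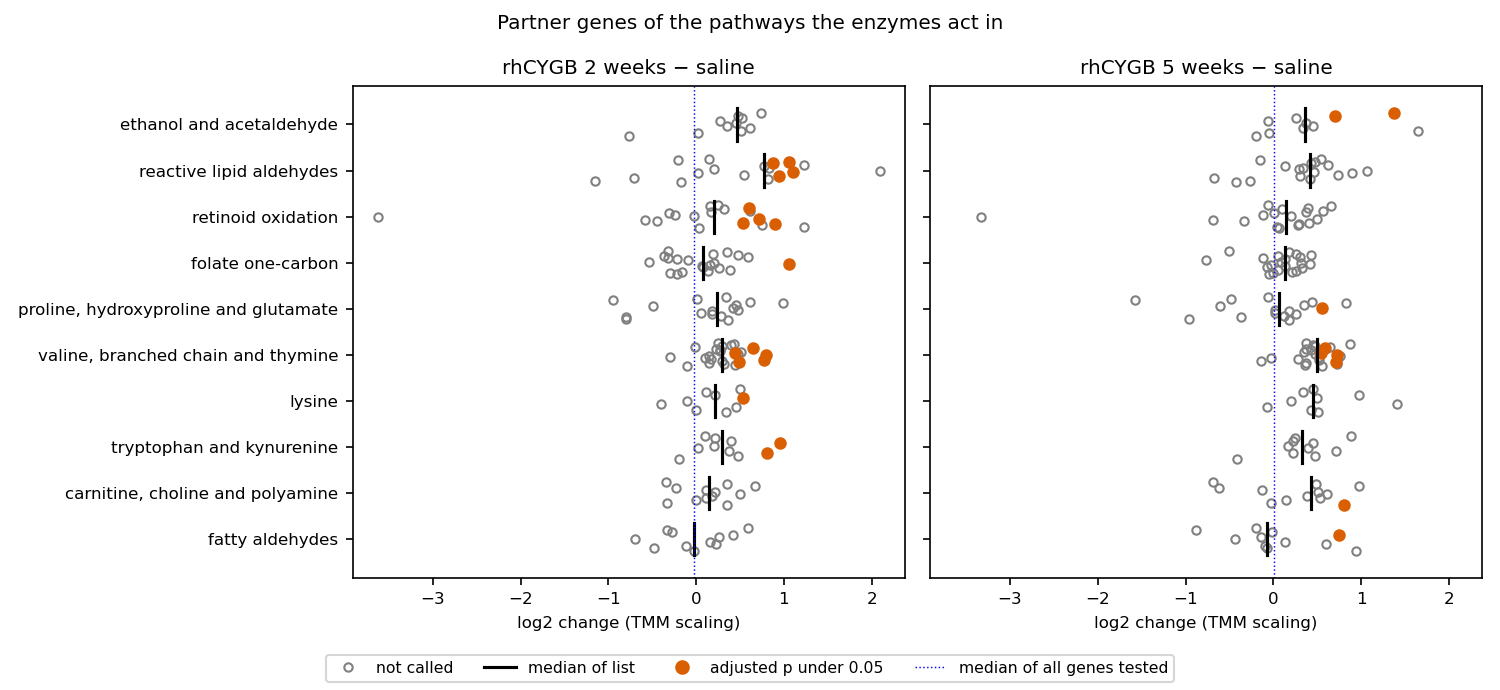
Log2 change of every tested partner gene by pathway list (open points), with orange points for genes called by edgeR at an adjusted p under 0.05, black lines for the median of each list and a dotted line for the median of all genes, at 2 weeks against saline and at 5 weeks against saline on the TMM scale. Called genes lie to the positive side in both comparisons (with library totals 7 and 2 called genes were negative), and the list of valine and other branched-chain amino acids holds 5 and 4 of them.

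The valine, branched-chain and thymine list around Aldh6a1 had 5 of 24 genes called higher at 2 weeks and 4 at 5 weeks, with median log2 changes of 0.29 and 0.50. Dpys, which opens the ring of dihydropyrimidines, averaged 149 ± 8.32 CPM in 2-week livers, 142 ± 21.0 CPM in 5-week livers and 85.7 ± 5.40 CPM in saline livers (1.74-fold and 1.66-fold; edgeR, adjusted p = 0.0245 and 0.0427). Bckdha, a subunit of the branched-chain ketoacid dehydrogenase, averaged 356 ± 28.1 CPM in 2-week livers and 208 ± 22.7 CPM in saline livers (1.72-fold; adjusted p = 0.0268), and Mcee 41.2 ± 4.39 CPM in 2-week livers, 39.6 ± 2.99 CPM in 5-week livers and 26.3 ± 0.919 CPM in saline livers (1.56-fold and 1.505-fold; adjusted p = 0.0275 and 0.0488). Hibch, the hydroxyisobutyryl-CoA hydrolase of valine breakdown, averaged 74.2 ± 2.29 CPM in 2-week livers, 79.9 ± 2.68 CPM in 5-week livers and 54.8 ± 2.27 CPM in saline livers (1.35-fold and 1.46-fold; adjusted p = 0.0473 and 0.0452), and Auh of leucine breakdown 22.6 ± 1.25 CPM in 2-week livers, 26.4 ± 1.88 CPM in 5-week livers and 16.2 ± 0.892 CPM in saline livers (1.40-fold and 1.64-fold; adjusted p = 0.0494 and 0.0361). Upb1, the gene most like the members in pattern, belongs to this list and was not called (log2 change 0.25 ± 0.11 and 0.37 ± 0.11; edgeR, adjusted p = 0.202 and 0.108).

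In the proline, hydroxyproline and glutamate list around Aldh4a1, 0 of 16 genes were called at 2 weeks and 1 at 5 weeks. Hoga1, of hydroxyproline breakdown, averaged 142.5 ± 8.70 CPM in 5-week livers and 96.9 ± 4.07 CPM in saline livers (1.47-fold; edgeR, adjusted p = 0.0472), and Prodh2, the hydroxyproline dehydrogenase, 216 ± 19.8 CPM in 2-week livers and 141 ± 13.7 CPM in saline livers without passing (edgeR, adjusted p = 0.0507). Among the lysine genes around Aldh7a1, Gcdh rose at 2 weeks, with 484 ± 26.8 CPM against 333 ± 21.9 CPM in saline livers (1.45-fold; edgeR, adjusted p = 0.0375), the only call among 9 genes. The tryptophan and kynurenine list around Aldh8a1 had 2 of 10 genes called at 2 weeks and 0 at 5 weeks: the transaminase Kyat3 with 388 ± 61.7 CPM in 2-week livers and 201 ± 17.4 CPM in saline livers (1.93-fold; edgeR, adjusted p = 0.0255), and Haao, which opens the ring of hydroxyanthranilate, with 446 ± 29.2 CPM in 2-week livers and 254 ± 49.3 CPM in saline livers (1.75-fold; adjusted p = 0.0392). Around Aldh9a1, the carnitine, choline and polyamine list had 1 of 12 genes called at 5 weeks and 0 at 2 weeks. That gene was Bbox1, which makes carnitine from the product of Aldh9a1, with 166 ± 11.2 CPM in 5-week livers and 94.8 ± 10.2 CPM in saline livers (1.75-fold; edgeR, adjusted p = 0.0361), and 121 ± 10.7 CPM in 2-week livers (adjusted p = 0.132 against saline).

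In lists with 0 calls, the gene with the lowest p missed the threshold as follows. At 2 weeks against saline, Sphk2, a sphingosine kinase, averaged 44.7 ± 8.15 CPM in 2-week livers and 29.7 ± 1.49 CPM in saline livers (edgeR, adjusted p = 0.0733). At 5 weeks against saline the adjusted p (edgeR) was 0.0923 for Aox1, 0.0573 for Rdh9, 0.114 for Mthfd2, 0.0587 for Gcdh and 0.0700 for Tdo2, the dioxygenase that starts tryptophan breakdown, which averaged 1427 ± 345 CPM in 5-week livers and 774 ± 129 CPM in saline livers. Mthfd2, a mitochondrial folate enzyme, was the only one of these with a negative log2 change, -0.77 ± 0.22. For 5 weeks against 2 weeks the genes were Cyp2e1 (log2 change 0.64 ± 0.20), Mthfd1l (0.62 ± 0.17), Dbt (0.81 ± 0.22), Dhtkd1 (1.81 ± 0.58), Tdo2 (0.78 ± 0.21) and Bbox1 (0.46 ± 0.12) on the positive side. On the negative side were Akr7a5 and Cyp26a1, given above, Pycrl (-0.40 ± 0.13) and Sphk2 (-0.79 ± 0.16). Over these 10 genes the adjusted p (edgeR) ran between 0.138 and 0.175.

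The hepatocyte markers, which share their main cell type with most of these genes, had median log2 changes of 0.32 at 2 weeks and 0.15 at 5 weeks, with 0 of 12 called at 2 weeks and 1 of 12, Cyp2e1, called higher at 5 weeks. For scaling to these markers, the group difference in their mean log2 level was subtracted from the log2 change of each member. The median log2 change of the 10 members was then 0.01 at 2 weeks and 0.26 at 5 weeks, and 5 and 8 of the 10 members were positive. That mean includes Cyp2e1 (log2 change 1.38 at 5 weeks), and scaling without Cyp2e1 was not tried. The stellate cell and myofibroblast markers had medians of -1.22 and -1.51. The T and NK cell markers rose for 4 of 11 tested genes at 2 weeks, where 1.98% of all genes were called higher. Their summed levels were 16.5 to 33.5 CPM in 2-week livers, 5.83 to 24.9 CPM in 5-week livers and 5.45 to 7.36 CPM in saline livers. Of those called, Gzmk averaged 0.692 CPM in 2-week and 0.0196 CPM in saline livers, and Cd8b1 1.37 and 0.232 CPM, near the limit of detection. Ccl5, also called, averaged 12.1 and 2.00 CPM. Macrophage markers summed to 547 to 884 CPM in 2-week livers, 493 to 583 CPM in 5-week livers and 730 to 755 CPM in saline livers (1 of 12 called higher and 2 lower at 2 weeks, 1 lower at 5 weeks), and cholangiocyte markers to 295 to 408 CPM in 2-week livers, 129.5 to 393 CPM in 5-week livers and 365 to 587 CPM in saline livers (0 of 9 tested genes called). Endothelial markers summed to 215 to 234 CPM in 2-week livers, 165 to 207 CPM in 5-week livers and 203 to 214 CPM in saline livers (0 of 10 called). The part of the mixture of cells in the members' differences was not tested beyond the scaling to hepatocyte markers.

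Transcripts were compared within genes as the share of a gene's FPKM that each RefSeq transcript held. Of the 4 members with more than 1 transcript in the deposited table, Aldh2, Aldh3a2 and Aldh6a1 had at least 90.1% of their FPKM in 1 transcript in every library. Aldh7a1 was divided between a transcript of 2911 bases and a longer one of 3105 bases. The shorter one held 74.8%, 78.9% and 69.4% in 2-week livers, 91.4%, 74.5% and 69.0% in 5-week livers, and 59.1%, 72.0% and 65.3% in saline livers. Its mean share was 76.3 ± 8.26% over the 6 rhCYGB livers and 65.5 ± 6.43% over the 3 saline livers, a difference of 10.8 percentage points (two-sided exact permutation test, p = 0.0833, 0.267 after Benjamini-Hochberg adjustment over 4 comparisons). The separate differences from saline were 8.88 points at 2 weeks and 12.8 points at 5 weeks (exact p = 0.2 each, where 3 against 3 libraries cannot go below 0.1). They came to 5.71 points at 2 weeks without saline replicate 12 and to 6.28 points at 5 weeks without replicate 23. The 5-week livers differed from 2-week livers by 3.94 points (exact p = 0.9), or -2.60 points without 5-week replicate 23. These shares depend on how the assembly program divided reads between overlapping transcripts.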

How the data were processed

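The values are whole-number estimated counts per gene and FPKM per gene and transcript, as the authors deposited them and per the file headers. The submitters' processing notes name the aligner HISAT2 2.1.0, the assembler StringTie 1.3.4d, the read check FastQC 0.11.7 and the build mm10; how counts were taken from the assembly, and whether by strand, is not given in the sources used here. Transcript lengths are the deposited ones, per the file headers.

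Genes passed filterByExpr with a minimum count of 10 and a minimum total of 15, and after TMM scaling edgeR 4.0.16 (R 4.3.3) gave a quasi-likelihood test from 1 fit of 9 libraries and 3 groups (6 residual degrees of freedom), adjusted by Benjamini-Hochberg over 14731 genes, with calls at an adjusted p under 0.05. SE is the log2 change divided by the square root of F. DESeq2 1.42.0 and limma 3.58.1 on log2(FPKM + 1) were alternatives, beside other scalings, filters, a length correction and left-out libraries. The fit was tested on simulated counts. The members, gene lists and rules were chosen with earlier results of these data known. Named were all Aldh genes, up to 3 called genes per list and comparison (otherwise that with the lowest p) and the 5 genes most like the members. Hepatocyte-marker scaling and the joint omission of replicates 17, 18 and 23 were added after seeing the data. Fold changes are not given for genes under 1 CPM. With 3 libraries a group, precision is set by the spread between libraries rather than by counting, at 55655727 reads or more each.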

Additional observations from a re-analysis of the deposited data

How the results depend on the processing

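No paired analysis was possible because the groups share no replicate number. The count of genes called at 2 weeks against saline was 488, and it became 1722 with library totals, 1713 with DESeq2 and 1983 with limma on FPKM. It was 1023 in a fit of the 2 groups alone, and 1 to 1095 when a single library was left out. At 5 weeks against saline the count was 190, and it became 77 with upper quartile scaling, 504 with library totals, 105 without a filter on low counts, 1188 with DESeq2, 1001 with limma, 1 in a fit of the 2 groups, 600 with the length trend removed, 7 without the 3 libraries, and 0 to 240 without single libraries. Between 5 and 2 weeks it was 3, and it became 788 with DESeq2, 5 with limma, 0 in a fit of the 2 groups, 6 with the length trend removed, and 1 to 1889 without single libraries. The edgeR counts at an unadjusted p under 0.05 were 3453, 2829 and 3421. The share of calls that were higher was 59.6% at 2 weeks (45.1% with upper quartile scaling, 6.39% with library totals, 7.31% with FPKM) and 53.2% at 5 weeks (41.6%, 7.54% and 6.89%).

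Of the other Aldh genes 2 were called at 2 weeks, against 1 with upper quartile scaling or no filter and 5 with DESeq2. The count was 3 with the length trend removed or the 2 groups alone, and 0 to 3 without single libraries. Limma on FPKM did not call Aldh3b1 or Aldh16a1 (limma, adjusted p = 0.146 and 0.374). It called Aldh18a1 and Aldh1a2, both lower (limma, adjusted p = 0.0165 and 0.0340). With library totals neither Aldh3b1 nor Aldh16a1 was called, and Aldh18a1 was called lower (edgeR, adjusted p = 0.0278). At 5 weeks 0 were called (1 with library totals or the length trend removed, 3 with DESeq2, 0 without single libraries). Limma called 2 at 5 weeks, Aldh18a1 and Aldh1a2, both lower. Between 5 and 2 weeks 0 were called (1 with DESeq2, 0 to 2 without single libraries). The count of pathway genes at 2 weeks was 17 (all higher), against 6 with upper quartile scaling and 24 with the length trend removed (all higher). It was 46 with DESeq2 (42 higher, 4 lower) and 27 in a fit of the 2 groups (25 higher, 2 lower). With library totals it was 13 (6 higher, 7 lower), and limma called 7 higher and 8 lower. Without single libraries it ran between 0 and 35. At 5 weeks it was 9 (all higher), against 4 with upper quartile scaling, 23 with the length trend removed and 6 without a filter (all higher). It was 44 with DESeq2 (39 higher, 5 lower), 3 with library totals (1 higher, 2 lower) and 7 with limma (2 higher, 5 lower). It was 0 in a fit of the 2 groups and 0 to 9 without single libraries. Between 5 and 2 weeks it was 0, against 12 with DESeq2 and 0 to 16 without single libraries.

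The median log2 change of the members was 0.32 at 2 weeks, and it became -0.0029 with library totals, -0.0079 with limma on FPKM and 0.0056 scaled to hepatocyte markers. It was 0.28 to 0.39 without single libraries. Without replicates 17, 18 and 23, which leaves replicate 19 as the only 2-week library, it was 0.54. At 5 weeks 0.48 became 0.26, 0.25 and 0.26 on those 3 scales, and 0.42 to 0.50 without single libraries. Between 5 and 2 weeks 0.09 became 0.19, 0.20 and 0.19, -0.054 without the 3 libraries, and 0.03 to 0.18 without single libraries. The Aldh7a1 share difference between 5 and 2 weeks ran between -2.60 and 8.57 points without single libraries.

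The directions of members that turned are given with each member. Among the other genes named, those that turned were Aldh1a7 at 2 weeks (-0.011 with upper quartile scaling, -0.28 with library totals, -0.29 with FPKM, -0.028 with the length trend removed, -0.045 to 0.13 without single libraries, the lowest without 2-week replicate 19) and at 5 weeks (-0.056 with library totals, -0.061 with FPKM), and Aldh5a1 at 2 weeks (-0.035 and -0.034 on those scales). At 5 weeks Aldh3b1 turned to -0.051 with library totals and -0.046 with FPKM, and Aldh16a1 to -0.047 and -0.047. Between 5 and 2 weeks, Aldh1a2 turned to 0.16 without replicate 23 and 0.96 without the 3 libraries (-0.60 to 0.23 without single libraries, the highest without replicate 18), Aldh18a1 to 0.21 without the 3 (-0.32 to 0.076 without single libraries, the highest without replicate 18), Aldh1a7 to -0.10 without the 3 and Aldh5a1 to -0.047 with the length trend removed. Where no construction of the alternative shows it, the cause was not tested.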
